A study of Homo sapiens with 4 samples.

Results

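The NRF2 target antioxidant genes examined here are NQO1, HMOX1, GCLM, GCLC, TXNRD1, SRXN1, SLC7A11, ME1 and FTL. They were taken by gene symbol, as every probe that the platform annotation names after 1 of these 9 genes, which gave 14 of the 47318 probes on the array. All 9 symbols were unchanged in RefSeq. Expression was profiled on Illumina bead arrays in the established human glioblastoma line U87. The cells received, at a final 25 nM, either a piR-598 mimic, a synthetic copy of a short RNA of the PIWI-interacting class, or a negative control oligo (NC oligo) that per the labels was designed as a control for microRNA inhibitors. RNA was taken 24 h later from biological duplicates, giving 2 arrays of each group. All 4 arrays thus share the cell line, the transfection reagent, the oligo dose and the time, and no array of untransfected cells was analysed here.

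NRF2, encoded by NFE2L2, is a transcription factor that KEAP1 holds in the cytoplasm and hands to a CUL3 ubiquitin ligase for destruction. When electrophiles or oxidants modify KEAP1, NRF2 accumulates, pairs with a small MAF protein and switches on genes that carry an antioxidant response element. Its targets make and recycle glutathione and thioredoxin, detoxify quinones, break down haem and store iron, and in glioma cells they are studied for their part in resistance to oxidative and drug stress.

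The mean deposited signal ran from 273.0 to 305.8 over the 4 arrays, with both mimic arrays below both NC oligo arrays, and from 19627 to 20324 probes per array had a detection p under 0.05. Precision is limited by having so few arrays. The cell line label was checked against markers: all 8 glioblastoma line markers, among them VIM and CD44, had a tested probe. Of 13 markers of other cell types, 7 had none, and GFAP, AQP4, MBP, RBFOX3, PTPRC and CDH5 were each detected on 0 of the 4 arrays. GFAP, the classical astrocyte filament, was thus not well above background, and CSF1R, SNAP25, ALB, OLIG2, CD14 and EPCAM each had a tested probe. The brightest probes of CSF1R and SNAP25 had mean unscaled NC oligo signals of 491 and 458. Those of the line markers NES, CHI3L1 and FN1 were lower, at 203, 306 and 125. VIM, CD44, SPARC, TNC and S100A6 were higher, so the lists did not separate fully by level. No marker in either list passed the test described next.

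None of the NRF2 targets differed detectably between the mimic and the NC oligo. Of the 14 probes, 12 were detected on all 4 arrays and were tested, representing 8 of the 9 genes. ME1 and the second probe of GCLC were not well above background on any array. In limma, 0 of the 12 probes passed a Benjamini-Hochberg adjusted p under 0.05 over all 20188 tested probes (smallest adjusted p among the 12 = 0.933), against 0% of all tested probes. Before adjustment, 0 of 12 reached a p under 0.05, against 5.46% of all tested probes. The fitted 95% intervals of the 12 probes reached from 0.666-fold to 1.43-fold at their widest. For 12 of 12 a 2-fold difference in normalized signal, in either direction, thus lay outside the interval. Close to background, where SLC7A11 and the dimmer NQO1 probe lay, a 2-fold difference in RNA can give a smaller one in signal. For these probes the interval therefore does not bound a difference in RNA, and whether FTL is compressed at the top of the scale was not tested. A p that misses the threshold does not show that the groups were alike, and differences inside these intervals cannot be told from 0 with 2 arrays per group.

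The antioxidant response element core, TGACNNNGC read on either strand, was looked for in the promoters of 7 of the 9 genes, since it is the sequence that NRF2 and its MAF partner bind. RefSeq promoter windows of assembly GRCh38.p14, from 250 bases before to 50 after the gene start, were available for 7 genes, with 8 windows in all because TXNRD1 has 2. No window was available for HMOX1 or SLC7A11, so these genes were not searched. A match was present in 4 of the 8 windows (GCLM, ME1 and both of TXNRD1), thus in 3 of the 7 genes. Of all 35116 promoter windows, 13.3% held one. The genes were chosen as NRF2 targets, so these shares do not test whether the core is enriched. The windows of NQO1, GCLC, SRXN1 and FTL did not hold these letters, which says nothing of elements further away. The matches upstream of the gene start are given on the strand of the gene, 5′ to 3′, with the 9 matched bases in capitals. In GCLM and the downstream TXNRD1 start the core lies on the opposite strand.
GCLM, chr1:93909445-93909474, minus strand, match from -34 to -26: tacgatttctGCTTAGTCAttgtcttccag
TXNRD1 upstream start, chr12:104215670-104215699, plus strand, match from -99 to -91: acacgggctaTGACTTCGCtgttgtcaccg
TXNRD1 downstream start, chr12:104286920-104286949, plus strand, match from -102 to -94: gtggatttctGCTTTGTCAttctgactctg
ME1, chr6:83431169-83431198, minus strand, match from -137 to -129: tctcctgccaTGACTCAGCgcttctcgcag
Positions count from the gene start, with bases before it negative. The upstream TXNRD1 window held another match across the gene start and the ME1 window another after it. Of the genes with a match, GCLM and TXNRD1 were detected on all 4 arrays and ME1 on 0, and a relation to detection was not tested. A match is a description of the letters and not evidence of binding.

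NQO1 encodes the quinone reductase that is the most widely used readout of NRF2 activity. Its brighter probe (ILMN_1720282) had the fold change furthest from 0 among the 12, lower with the mimic, without passing the test. Its scaled signal, as deposited by the authors, was 3168 on NC oligo array 1, 2709 on NC oligo array 2, 2615 on mimic array 1 and 2275 on mimic array 2. Every mimic array lay below every NC oligo array, although mimic array 1 was nearer to NC oligo array 2 than the NC oligo arrays were to each other. On the normalized log2 scale the level was 11.46 ± 0.14 with the NC oligo and 11.22 ± 0.13 with the mimic (SD, n = 2). The log2 fold change was -0.24 ± 0.15 (SE, limma adjusted p = 0.935), with an interval from -0.59 to 0.12. The log2 difference between the NC oligo arrays was 0.20 and that between the mimic arrays 0.19, so each was nearly as large as the difference between the groups. The dimmer NQO1 probe (ILMN_2354953), with scaled signals from 100.2 to 108.4 and a detection p of up to 0.0442, lay close to background. Its log2 fold change was 0.18 ± 0.15 (SE, limma adjusted p = 0.943), opposite in sign, and here both mimic arrays were above both NC oligo arrays. The difference between the NQO1 probes was not tested.

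HMOX1 encodes haem oxygenase, which splits haem into biliverdin, carbon monoxide and iron and is induced by many kinds of stress. Its scaled signal was 2051 and 1733 on the NC oligo arrays and 1715 and 1741 on the mimic arrays. Only NC oligo array 1 stood apart, while NC oligo array 2 lay between the mimic arrays. The normalized log2 level was 10.81 ± 0.18 with the NC oligo and 10.70 ± 0.01 with the mimic (SD, n = 2), and the log2 fold change was -0.10 ± 0.15 (SE, limma adjusted p = 0.975). The value was 0.02 when NC oligo replicate 1 was left out and -0.23 when replicate 2 of that group was.

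FTL encodes the ferritin light chain, a subunit of the shell that stores iron, including the iron freed from haem. Both FTL probes were among the brightest on every array, with at most 32 of the 47318 probes brighter, so a difference may be compressed at the top of the scale, and this was not tested. The probe ILMN_1740429 had scaled signals of 12598 and 12881 on the NC oligo arrays and 14390 and 14310 on the mimic arrays. All mimic values of this probe were above all NC oligo values, and its normalized log2 fold change was 0.14 ± 0.14 (SE, limma adjusted p = 0.963). The probe ILMN_1814823 had 13451 and 12993 on the NC oligo arrays and 15090 and 13144 on the mimic arrays, where the groups overlapped. Its normalized log2 fold change was 0.04 ± 0.14 (SE, limma adjusted p = 0.992), and -0.01 without piR-598 mimic replicate 1. FTL has processed pseudogene copies in the genome, and which transcripts its probes read could not be told here.

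**Figure D1:**
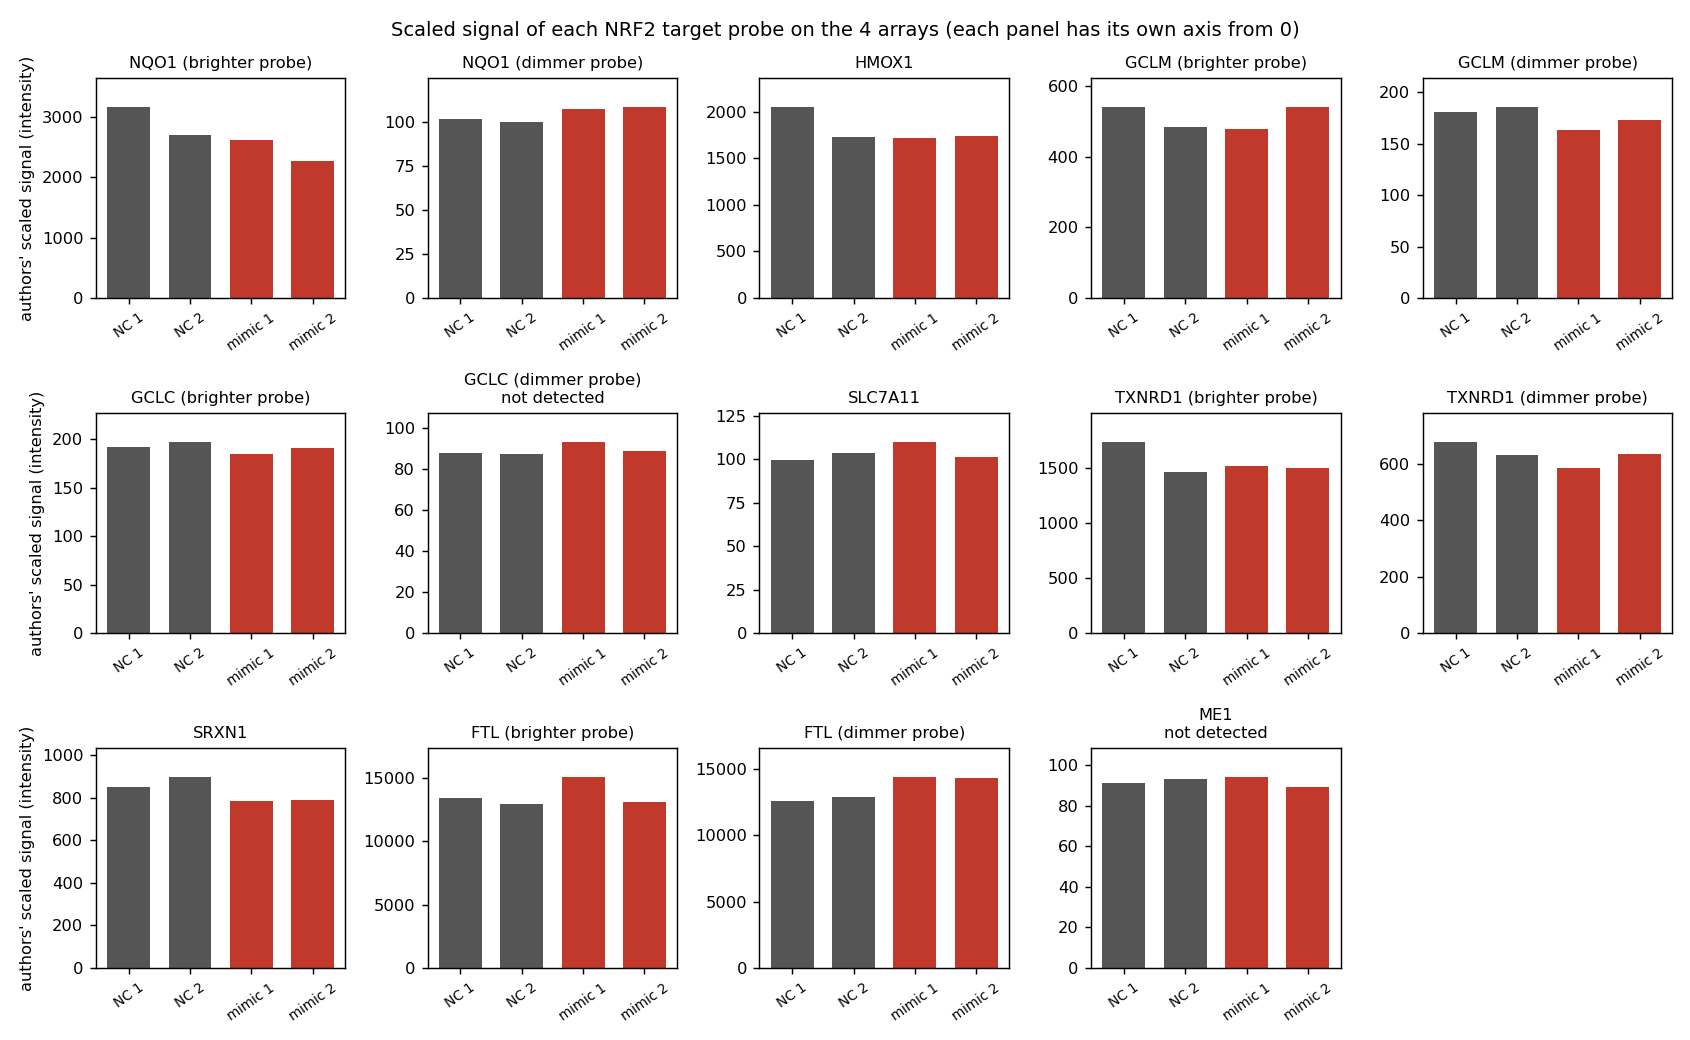
Bars give the authors' scaled signal (linear intensity, from 0) of each of the 14 probes on NC oligo arrays 1 and 2 (grey) and piR-598 mimic arrays 1 and 2 (red), with a separate axis for each probe, so heights are comparable only within a panel. The brighter NQO1 probe reads 3168 on NC oligo array 1 and 2275 on mimic array 2, while HMOX1 is high on NC oligo array 1 alone and the GCLM brighter probe overlaps between the groups.

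The glutathione branch comprised the cystine importer and both subunits of the enzyme that starts glutathione synthesis. SLC7A11 encodes xCT, the light chain of the cystine/glutamate exchanger. It was detected on all 4 arrays but barely, with detection p from 0.0026 to 0.0481 and scaled signals of 99.6 and 103.7 on the NC oligo arrays and 109.9 and 101.1 on the mimic arrays. The mimic arrays lay further apart than the groups, by a log2 of 0.37 against a log2 fold change of 0.04 ± 0.17 (SE, limma adjusted p = 0.994). That fold change was 0.22 when mimic replicate 2 was left out and -0.15 when mimic replicate 1 was.

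GCLC encodes the catalytic subunit of glutamate-cysteine ligase. Its detected probe (ILMN_1730575) had scaled signals of 191.8 and 197.4 on the NC oligo arrays and 184.5 and 191.0 on the mimic arrays. Both mimic arrays read below both NC oligo arrays, mimic array 2 only just, and the normalized log2 fold change was -0.08 ± 0.14 (SE, limma adjusted p = 0.985). The other GCLC probe (ILMN_2215194) had detection p from 0.643 to 0.844, so no fold change is given for it.

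GCLM encodes the modifier subunit that raises the efficiency of the ligase. Its brighter probe (ILMN_1788547) had scaled signals of 541.2 and 485.5 on the NC oligo arrays and 480.3 and 540.6 on the mimic arrays, so each group held a high and a low array. The normalized log2 fold change was 0.04 ± 0.15 (SE, limma adjusted p = 0.992). The sign was not stable: it was -0.048 when NC oligo replicate 2 was left out and -0.028 when mimic replicate 2 was, and -0.0086 in the scaled signals of the authors. Under median scaling it was -0.093, or -0.0073 relative to the median of all tested probes. The dimmer GCLM probe (ILMN_2225974) read 180.9 and 185.7 on the NC oligo arrays and 163.7 and 172.7 on the mimic arrays, all mimic values below all NC oligo values. It had the smallest unadjusted p of the 12 probes (0.160) and a normalized log2 fold change of -0.22 ± 0.14 (SE, limma adjusted p = 0.933). As for NQO1, the probes of GCLM thus differed in sign, and the difference between them was not tested.

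The thioredoxin branch comprised TXNRD1, the cytosolic selenoprotein that reduces thioredoxin with NADPH, and SRXN1, sulfiredoxin, which repairs over-oxidised peroxiredoxins. TXNRD1 had 2 probes, annotated to different transcripts of the gene. The brighter (ILMN_1717056) had scaled signals of 1736 and 1467 on the NC oligo arrays and 1517 and 1496 on the mimic arrays, with only NC oligo array 1 apart from the rest. The dimmer (ILMN_2324421) had 677.2 and 630.7 on the NC oligo arrays and 586.2 and 635.0 on the mimic arrays, where the groups overlapped. Their normalized log2 fold changes were -0.05 ± 0.15 and -0.07 ± 0.14 (SE, limma adjusted p = 0.991 and 0.986). For the brighter probe, leaving out NC oligo replicate 1 gave 0.07 and leaving out replicate 2 gave -0.18.

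SRXN1 was lower on both mimic arrays than on both NC oligo arrays. Its scaled signal was 850.2 and 898.0 on the NC oligo arrays and 783.0 and 788.1 on the mimic arrays. The normalized log2 level was 9.61 ± 0.07 with the NC oligo and 9.50 ± 0.04 with the mimic (SD, n = 2). The log2 fold change was -0.11 ± 0.14 (SE, limma adjusted p = 0.972), and it was negative in each of the 9 alternative settings that change the fitted value. Relative to the median of all tested probes in each setting, it ran from -0.17 to -0.06. The brightest probes of NQO1, SRXN1 and GCLC were negative in every alternative that was run on them.

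ME1 encodes cytosolic malic enzyme, which makes NADPH from malate. Its 1 probe (ILMN_1736042) had scaled signals of 91.4 and 93.0 on the NC oligo arrays and 94.2 and 89.3 on the mimic arrays, with detection p from 0.317 to 0.812. This probe was not well above background on any array, and no fold change is given.

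**Figure D2:**
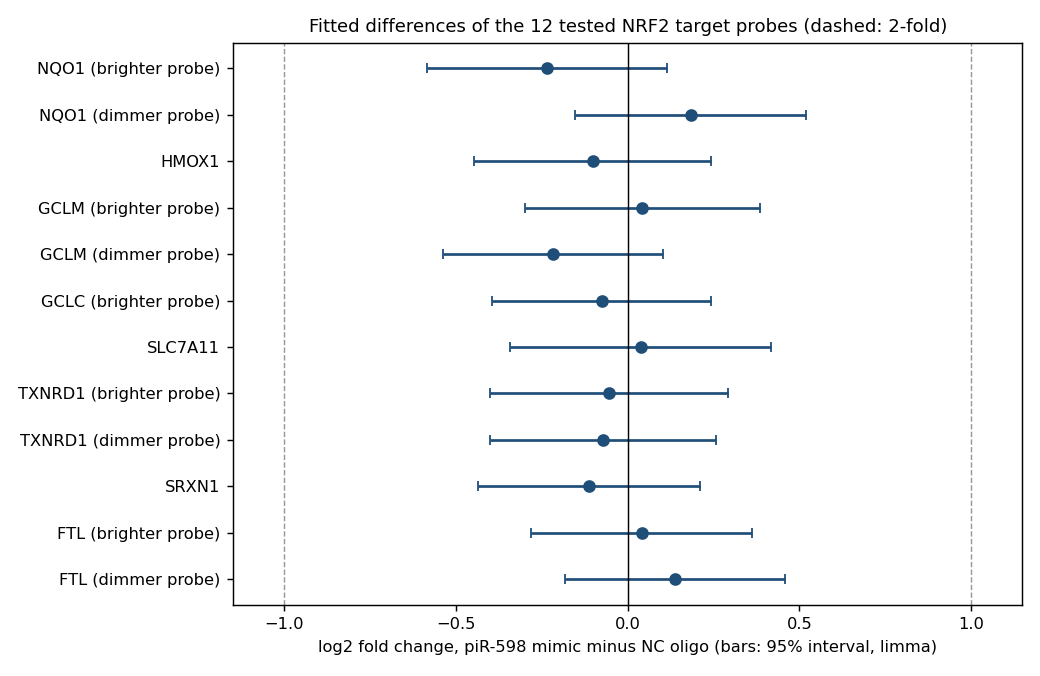
Points give the normalized log2 fold change (piR-598 mimic minus NC oligo) of the 12 tested probes and bars the 95% interval from limma, with dashed lines at a 2-fold difference. All 12 intervals cross 0 and stay between the dashed lines, and the probes of NQO1 and of GCLM lie on opposite sides of 0.

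Taken by gene, with the brightest probe of each, 5 of the 8 tested genes were negative and 3 positive, and their median log2 fold change was -0.06. The median of all tested probes was 6.7e-04, and 49.9% of them were negative. Without NC oligo replicate 1 the median of the 8 genes was 0.01, and without NC oligo replicate 2 it was -0.06. Its sign was thus not kept each time an array was left out. Over the 12 probes, 4 had both mimic arrays below both NC oligo arrays (NQO1, GCLM, GCLC and SRXN1), against 17.6% of all tested probes. For 2 probes (of NQO1 and FTL) both mimic arrays were above both NC oligo arrays, against 17.1%, and the groups overlapped for 6. These are counts of a few probes, of which some share a gene, and 34.7% of all tested probes separated in either direction. For 6 of the 12 probes the larger difference between arrays of the same group exceeded the difference between the groups, against 76.7% of all tested probes.

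In the unscaled signals 8 of the 12 probes were lower on both mimic arrays than on both NC oligo arrays, against 52.9% of all tested probes. After normalization 4 of the 12 were, as given above. The mimic arrays were dimmer as a whole, with unscaled array means of 273.0 and 284.8 against 305.8 and 300.0, and the authors' scaling multiplied them by 1.07 and 1.02 and the NC oligo arrays by 0.951 and 0.970. Unscaled signals of these genes therefore carry the brightness of their array as well as any difference between the groups.

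**Figure D3:**
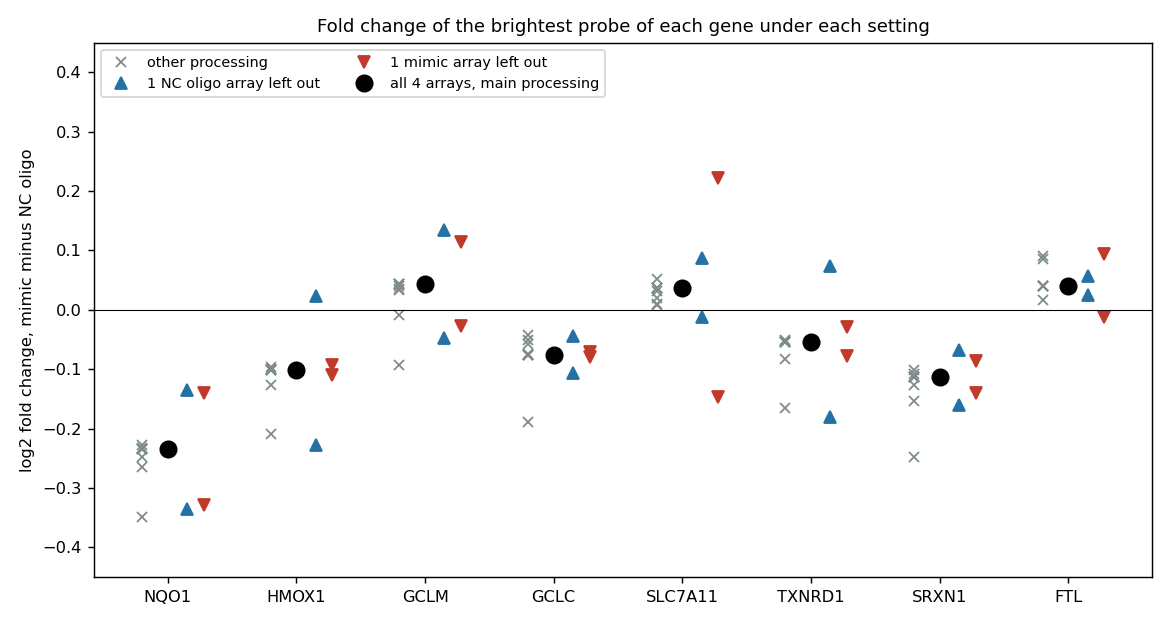
Markers give the log2 fold change (piR-598 mimic minus NC oligo) of the brightest probe of each tested gene with all 4 arrays (black), with 1 NC oligo array left out (blue), with 1 mimic array left out (red) and under other processing (grey crosses). HMOX1 and TXNRD1 move across 0 when an NC oligo array is left out and SLC7A11 moves from -0.15 to 0.22, while NQO1, SRXN1 and GCLC stay below 0.

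The genes that control NRF2 did not pass the test either. Of 12 regulators and partners, 11 had a named probe and 9 were tested, with 0 called in either direction against 0% of all tested probes, and a median log2 fold change of -0.05. NFE2L2, which encodes NRF2 itself, had normalized log2 levels of 8.38 and 8.57 on the NC oligo arrays and 7.65 and 8.62 on the mimic arrays. Mimic array 1 was far below the other 3, which lay close together. Its log2 fold change was -0.33 ± 0.28 (SE, limma adjusted p = 0.947), with an interval from -0.96 to 0.29 that was wider than that of any NRF2 target above. Over the 12 probes of the NRF2 targets, mimic array 1 differed from mimic array 2 by between -0.14 and 0.37 on the log2 scale. The highest was SLC7A11, and no target probe had a gap as large as that of NFE2L2. A relation between NFE2L2 and the targets was not tested.

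KEAP1, the sensor that targets NRF2 for destruction, had tested probes at 0.20 ± 0.16 and -0.03 ± 0.17 (log2 fold change, SE), and its remaining probe was not detected. MAFG, a small MAF partner, had 0.24 ± 0.15 and 0.03 ± 0.17, with its remaining probe detected on 1 array. BACH1, the repressor that competes with NRF2 at HMOX1, was detected on 0 of the 4 arrays. SQSTM1, which encodes the KEAP1-binding autophagy receptor p62 and is also an NRF2 target, had -0.07 ± 0.14. The smallest unadjusted p in this list were those of NFE2L1, a relative of NRF2 that controls proteasome genes, at 0.25 ± 0.16, of DPP3, a peptidase that binds KEAP1, at 0.23 ± 0.15 on its brightest probe and 0.11 ± 0.14 and -0.07 ± 0.15 on the others, and of MAFG (limma adjusted p of at least 0.919 for each regulator).

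Other known NRF2 targets gave no call either. Of 27 such genes, 23 had a named probe and 19 were tested, with 0 called, against 0% of all tested probes. By sign 12 were positive and 7 negative, where 49.9% of all tested probes were negative, and the median log2 fold change was 0.06. The range ran from -0.08 to 0.16. The genes with the smallest unadjusted p were BLVRB, a biliverdin reductase, at 0.16 ± 0.16, TKT, the transketolase of the pentose phosphate pathway, at 0.15 ± 0.15, and TXN (log2 fold change, SE). TXN encodes thioredoxin, the substrate of TXNRD1, and its probes had 0.11 ± 0.14 and -0.07 ± 0.14, of opposite sign. FTH1, the ferritin heavy chain that partners FTL, matched no named probe used here. No gene of this list had an adjusted p in limma below 0.960.

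Of 13 glutathione and thioredoxin partners, 10 were tested, with 0 called, against 0% of all tested probes. Of these 4 were positive and 6 negative, where 49.9% of all tested probes were negative, and their median log2 fold change was -0.01. SLC3A2 encodes the heavy chain that carries xCT to the cell surface. Its brighter probe had a log2 fold change of 0.19 ± 0.14 (SE, limma adjusted p = 0.936). Its dimmer probe had normalized log2 levels of 6.65 and 6.86 on the NC oligo arrays and 7.10 and 7.21 on the mimic arrays, with a log2 fold change of 0.40 ± 0.15 (SE, limma adjusted p = 0.895). Both SLC3A2 probes were higher on both mimic arrays than on both NC oligo arrays, as were 17.1% of all tested probes. The interval of the dimmer probe, from 0.06 to 0.75, did not hold 0 (limma unadjusted p = 0.026). Before adjustment, 5.46% of all tested probes had a p under 0.05. Neither SLC3A2 probe passed the test. GPX1, a glutathione peroxidase, had 0.16 ± 0.15, and CAT, catalase, had 0.16 ± 0.17 on its brighter and -0.35 ± 0.21 on its dimmer probe (log2 fold change, SE).

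**Figure D4:**
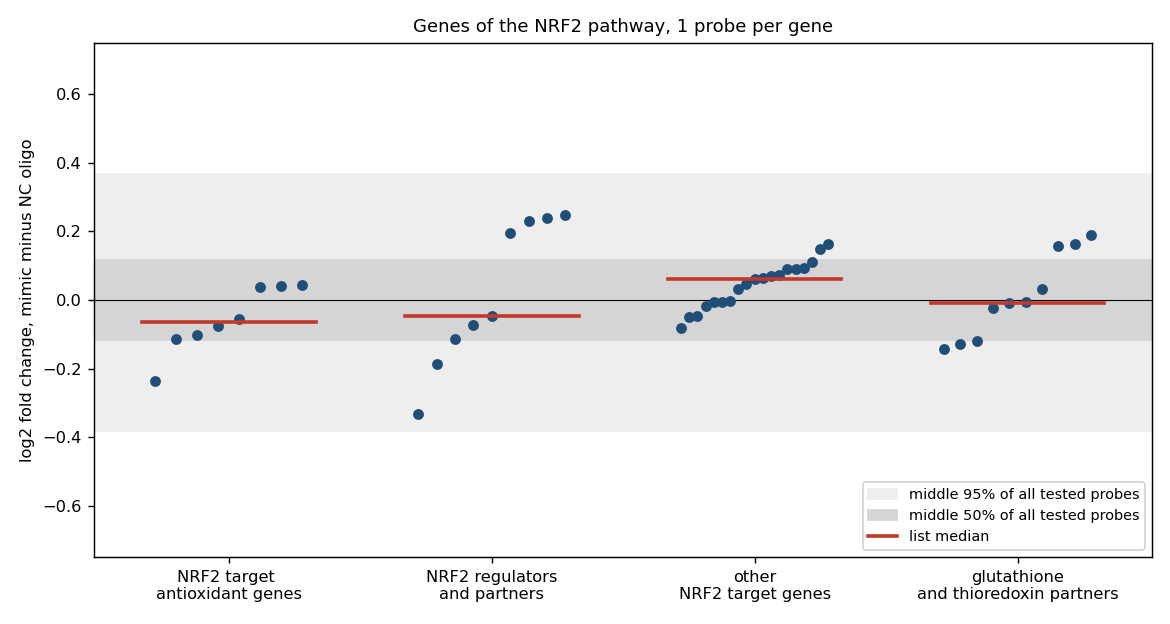
Points give the log2 fold change (piR-598 mimic minus NC oligo) of each tested gene, 1 probe per gene, in the NRF2 targets described here, the NRF2 regulators, the other NRF2 targets and the glutathione and thioredoxin partners, with the list median in red and the middle 50% and 95% of all tested probes in grey. Every gene of the 4 lists lies within the middle 95% of all tested probes, and the list medians lie between -0.06 and 0.06.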

How the data were processed

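Samples were grouped by their titles. Each probe has, per the file headers, a linear signal intensity and a detection p-value for every array, both deposited by the authors; GenomeStudio 2011.1 is named in the submitters' processing notes. A further table deposited by the authors holds the same intensity values times a constant per array, linear and not centred. Array means became 290.9. It was used to print levels and as an alternative.

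Unscaled signals were corrected by normexp with an offset of 16 (background estimated from the detection p), quantile normalized and taken to log2 with the neqc steps of limma 3.58.1 in R 4.3.3. The 20188 probes (42.7%) whose detection p was under 0.05 on 2 or more arrays were tested in limma (lmFit, eBayes), two-sided, with Benjamini-Hochberg adjustment over all of them. A gene with several tested probes was represented by its brightest. Probes were named from the platform annotation (30112 with 1 symbol, 8 with several, 17198 with none).

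The members and lists were chosen with earlier results of these data known. All probes of the members were named, with 8 fixed pathway genes and the 3 of smallest unadjusted p in each pathway list. The labels call the duplicates biological but do not say whether they were separate cultures. If they were not, the p-values cover only the spread between these arrays, which may be technical. The steps were tested on simulated data. Alternatives were other background, offset, scaling (median, cyclic loess) and detection settings, the authors' scaled signals, an intensity trend, a replicate block, the dimmest probe of each gene, and leaving out each array after normalization.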

Additional observations from a re-analysis of the deposited data

How the results depend on the processing

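None of the 12 member probes was called under any of the 13 alternatives to the fit (limma, smallest adjusted p = 0.572, without piR-598 mimic replicate 2), and at an unadjusted p under 0.05 there were 2 on the authors' scaled signals, against 6.44% of all tested probes there, 1 with no detection filter, against 5.42%, and 0 otherwise. Each fit with 1 array left out has a lone array in a group, which is assumed to vary like the other group. The median log2 fold change of the member genes was -0.18 under median scaling, where the median of all tested probes was -0.09, and ran from -0.086 to 0.0054 with 1 array left out. The highest, 0.0054, was the one without NC oligo replicate 1. Over all probes, 3 were called without NC oligo replicate 2 and 1 without piR-598 mimic replicate 2, and 0 in each other alternative. Of 111 gene values under the alternatives, 35 were identical to the main value because those settings change only the filter, the spread or a probe choice the gene does not have. Of the other 76, 65 kept the sign and 11 did not. GCLM was -0.093 with arrays scaled to a common median (-0.0073 relative to all tested probes, so nearly all of it is the shift of all probes) and -0.0086 in the scaled signals of the authors, and with the dimmest probe per gene GCLM was -0.22 and NQO1 0.18. With 1 array left out, HMOX1 ran from -0.23 to 0.024, TXNRD1 from -0.18 to 0.073, SLC7A11 from -0.15 to 0.22, GCLM from -0.048 to 0.13 and FTL from -0.013 to 0.094. The cause of the other turns was not tested. With the replicate number as a block, 0 member probes were called (smallest adjusted p = 0.798) and the member median was -0.06. Over the tested probes the deviations of the arrays numbered 1 from their group means correlated at 0.147, and the labels give the number no meaning, so it does not pair the arrays. SLC7A11 and the dimmer NQO1 probe lie close to background, which limits what their values can show.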
